A study of Mus musculus with 11 samples.

Results

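The cytochrome P450 genes of the mouse stomach were compared between normal gastric epithelium and 2 genetic models of diffuse-type gastric cancer. The members were all genes whose single array symbol has the form Cyp, family number, subfamily letter and gene number, 1 probe set per gene, which gave 82 of the 19938 genes measured. They fall into 14 families and 36 subfamilies, and family 2 holds 44 of them. A probe set naming several genes was not counted, and 7 such probe sets that name a P450 were left out, as were 5 P450 genes with symbols of another form (Cyp51, Cyp4a12a, Cyp4a12b and the pseudogenes Cyp2d37-ps and Cyp4f41-ps).

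RNA of 11 untreated mouse samples was hybridised to 1 Affymetrix array each. The NGE group was normal gastric epithelium of Pdx1-1-Cre-negative mice (4 arrays). The pChePS_GC group was gastric cancer tissue of mice that carried Pdx-1-Cre together with Cdh1F/+, with Trp53F/F and with Smad4F/F (4 arrays). The pCP_GC group was gastric cancer tissue of mice that carried Pdx-1-Cre together with Cdh1F/F and with Trp53F/F (3 arrays), without floxed Smad4 in the label. Cre is driven by the Pdx-1 promoter, active in pancreas, duodenum and gastric antrum, so only cells that used this promoter, or descend from such cells, carry the recombined alleles. The labels give neither age nor sex. Whether each sample is its own animal is not stated either, and p-values therefore measure only the spread between arrays, which may be technical.

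P450 enzymes are haem proteins that insert 1 oxygen atom into a substrate, with electrons passed on by a reductase in the endoplasmic reticulum or by ferredoxin in mitochondria. Families 1 to 3 are best known for drugs, toxins and dietary compounds, and several of their members also convert arachidonic acid to epoxides. Family 4 hydroxylates fatty acids and leukotrienes, and the remaining families act on sterols, bile acids, vitamin D, retinoic acid and steroid hormones. In the gut wall they meet swallowed compounds before the liver does.

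The medians of the arrays over all probe sets, in log2 units, ran from 7.63 to 7.81. Over the genes that were fitted, they ran from 8.10 to 8.16 in NGE, 8.25 to 8.34 in pChePS_GC and 8.29 to 8.44 in pCP_GC. On those genes every tumour array thus had a higher median than every NGE array. Precision is limited by how few arrays there are. All values below are log2 signals or differences of log2 signals, where 1 is a 2-fold difference. The parietal cell markers, such as the proton pump gene Atp4b, showed the gastric origin of NGE and were lower in the tumours: 7 of 7 fell in each group, and their summed level ran from 15.42 to 15.52 in the NGE arrays, 9.94 to 10.47 in pChePS_GC and 9.59 to 12.35 in pCP_GC. Macrophage markers (8 of 9 rose in each tumour group), fibroblast markers (7 of 8) and endothelial markers (6 of 7) were higher in tumour tissue. Chief cell markers fell as well (5 of 5 in pChePS_GC and 4 of 5 in pCP_GC). Of the surface mucous cell markers 5 of 6 fell in pChePS_GC, and 2 of 6 in pCP_GC, the latter near the share of all genes. Of all genes, 23.4% fell and 18.7% rose in pChePS_GC, and 31.8% fell and 20.0% rose in pCP_GC. Of 14 hepatocyte markers, 0 rose, 5 fell in pChePS_GC and 9 in pCP_GC, and their summed level ran from 14.15 to 14.40 in the NGE arrays, 11.48 to 11.73 in pChePS_GC and 11.81 to 12.26 in pCP_GC; albumin (Alb), which defines that cell type, read 7.45 to 7.57 in NGE. In bulk samples like these, fewer cells of a type and less RNA per cell cannot be told apart. Xist, the RNA of the inactive X chromosome, read 11.54 to 12.66 in NGE and 5.57 to 6.02 in the tumours, and the Y-linked gene Eif2s3y read 4.94 to 5.19 in NGE and 8.08 to 11.09 in the tumours. Each comparison with NGE is therefore also one between arrays of opposite sex-linked levels, and sex and tumour cannot be told apart.

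Most P450 genes that changed in the tumours were lower there. In pChePS_GC, 32 of the 82 members fell (against 23.4% of all genes) and 3 rose (3.66%, against 18.7% of all genes). In pCP_GC, 40 fell (48.8%, against 31.8% of all genes) and 2 rose (2.44%, against 20.0%). The falls of at least 2-fold numbered 8 in pChePS_GC (9.76%, against 3.34% of all genes) and 5 in pCP_GC (6.10%, against 2.83%). These counts moved with the scaling: after quantile normalization 17 members fell in pChePS_GC (20.7%, beside 18.1% of all genes) and 24 in pCP_GC (29.3%, beside 23.3%), so the members' share was then nearer that of all genes. With arrays centred on their medians it was 52 (63.4%, beside 45.6%) and 56 (68.3%, beside 48.7%). Both comparisons use the same 4 NGE arrays. The median member differed by -0.29 in pChePS_GC and -0.31 in pCP_GC, where the median of all genes was -0.10 and -0.12.

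Many members were too dim for such small falls to be read as loss of a transcript. As a yardstick, 1194 olfactory and vomeronasal receptor genes, which the stomach is not known to use widely, had a 95th percentile of 7.24 in the NGE arrays, 6.99 in pChePS_GC and 6.86 in pCP_GC. Of the 82 members, 42 did not exceed that level in any group. Among these 42, 0 rose and 15 fell in pChePS_GC (35.7%), where 17.8% of the receptor genes fell as well. In pCP_GC, 0 of the 42 rose and 22 fell (52.4%), beside 35.5% of the receptor genes. A member with a large change can leave this set through its own values, so these counts are a description only. Rises were rare among the receptor genes too, at 2 of 1194 in pChePS_GC and 3 in pCP_GC. With the dimmest 25% of genes by mean over all arrays left out, 37 members remained, of which 16 fell in pChePS_GC (beside 22.3% of the genes kept) and 17 in pCP_GC (beside 26.8%). Of these 37, 4 rose in pChePS_GC (beside 24.6%) and 2 in pCP_GC (beside 25.5%). Without the dimmest 50%, 3 of 15 members rose in pChePS_GC (beside 30.1%) and 0 in pCP_GC (beside 29.5%).

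**Figure D1:**
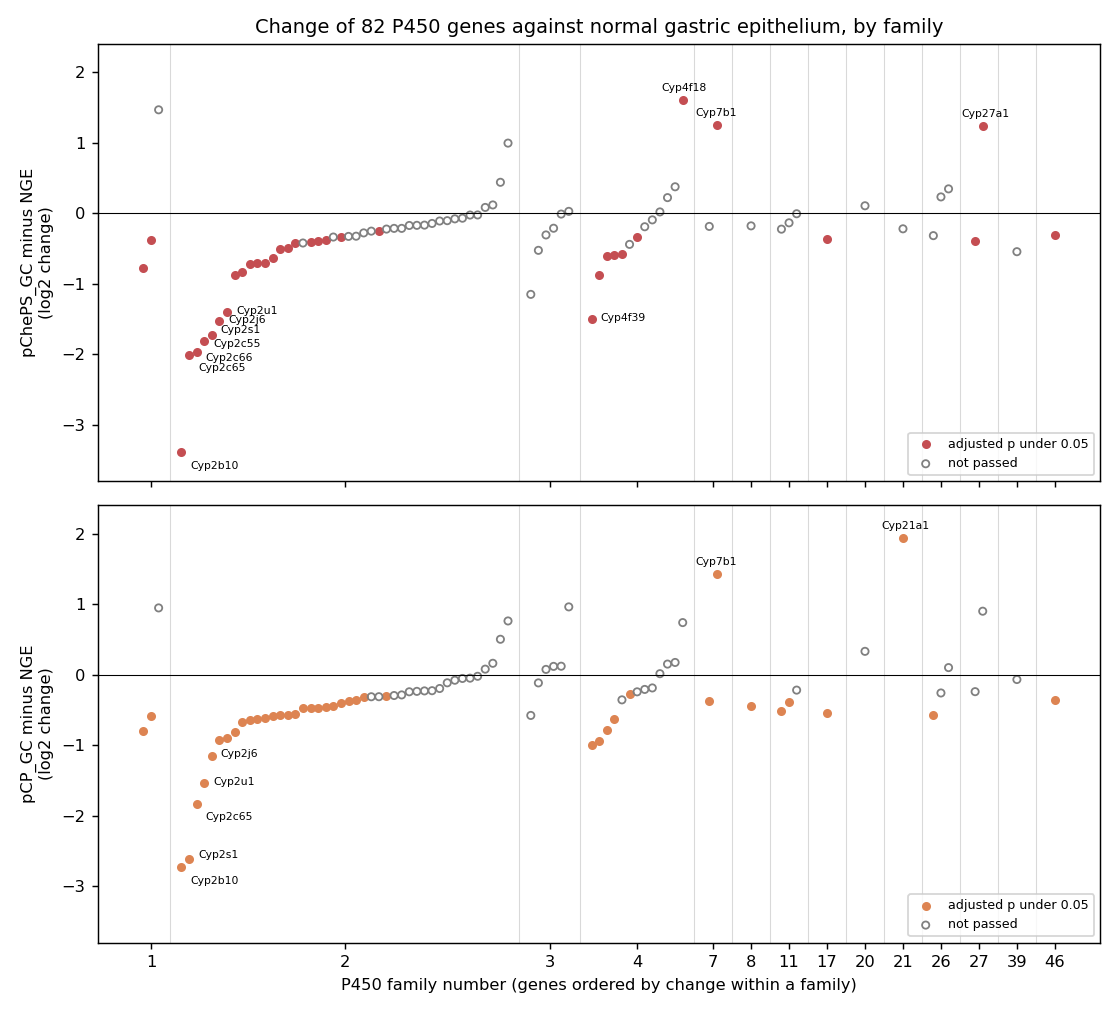
Log2 change of each of the 82 P450 genes against NGE (vertical axis), in pChePS_GC above and pCP_GC below, grouped by family number along the horizontal axis and ordered by change within a family. Filled points passed at an adjusted p under 0.05 and open points did not; names mark passed changes of at least 2-fold. The deepest falls are in family 2, where 21 of 44 members fell in pChePS_GC, 26 fell in pCP_GC and 0 rose in either.

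Family 2, the largest and the most concerned with foreign compounds, carried 7 of the 8 falls of at least 2-fold in pChePS_GC and all 5 in pCP_GC. Of its 44 members 21 fell in pChePS_GC, where 23.4% of all genes fell, and 26 in pCP_GC, where 31.8% did. The 5 largest fitted falls in pChePS_GC (Cyp2b10, Cyp2c65, Cyp2c66, Cyp2c55 and Cyp2s1) and the 3 largest in pCP_GC (Cyp2b10, Cyp2s1 and Cyp2c65) belong to genes of 2 tandem clusters. On chromosome 7, Cyp2s1, Cyp2b10, Cyp2b13 and Cyp2b9 lie in a row with no other protein-coding gene between them. Of these 4, 3 fell in pChePS_GC and 4 of 4 in pCP_GC, beside the same shares of all genes. Cyp2b13 and Cyp2b9 did not exceed the receptor level in any group. By limma, Cyp2b13 differed by -0.22 in pChePS_GC (adjusted p = 0.118) and by -0.32 in pCP_GC (adjusted p = 0.0427). On chromosome 19, a run of 14 P450 genes begins with Cyp2c55, Cyp2c65 and Cyp2c66; it holds 12 members, of which 8 fell in pChePS_GC and 7 in pCP_GC, to be read beside the same shares of all genes. The 200 bases before the RefSeq starts of the neighbours Cyp2c55, Cyp2c65 and Cyp2c66, and of Cyp2b10 for contrast, are printed because these 4 genes fell in both tumour groups and the first 3 are adjacent (RefSeq, GRCm38.p6: chr19:39006819-39007018, chr19:39060806-39061005, chr19:39113698-39113897 and chr7:25897458-25897657, all on the plus strand). Capitals mark the letters TATAAA, those of a TATA box where they lie close before a start, a core of sites bound by HNF4 factors (CAAAGTCC) and the core bound by the aryl hydrocarbon receptor (GCGTG, or CACGC read on the other strand).
Cyp2c55: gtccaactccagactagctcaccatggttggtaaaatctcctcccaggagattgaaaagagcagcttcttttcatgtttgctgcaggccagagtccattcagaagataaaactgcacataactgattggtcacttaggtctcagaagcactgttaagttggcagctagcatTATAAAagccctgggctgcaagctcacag
Cyp2c65: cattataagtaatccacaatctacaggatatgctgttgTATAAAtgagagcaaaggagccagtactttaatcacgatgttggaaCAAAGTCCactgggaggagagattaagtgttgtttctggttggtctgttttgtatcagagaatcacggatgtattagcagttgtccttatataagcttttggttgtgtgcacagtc
Cyp2c66: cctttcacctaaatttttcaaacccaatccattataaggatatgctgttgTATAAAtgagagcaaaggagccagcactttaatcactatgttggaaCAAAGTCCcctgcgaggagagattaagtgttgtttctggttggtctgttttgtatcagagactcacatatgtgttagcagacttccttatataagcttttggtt
Cyp2b10: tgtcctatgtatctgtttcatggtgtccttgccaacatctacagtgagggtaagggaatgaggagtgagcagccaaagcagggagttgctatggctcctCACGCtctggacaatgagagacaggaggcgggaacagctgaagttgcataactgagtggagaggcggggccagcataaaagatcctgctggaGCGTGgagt

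The windows of Cyp2c65 and Cyp2c66 are near copies of each other, alike at 170 of 212 aligned positions (80.2%), whereas those of Cyp2c55 and Cyp2c65 are alike at 53.8% and those of Cyp2c65 and Cyp2b10 at 45.5%. The motif CAAAGTCC, chosen after the sequences were seen, starts 116 bases before the start of Cyp2c65 and 104 bases before that of Cyp2c66. It occurs on either strand in 0.956% of 32851 promoter windows of that length and in 9 of 71 windows (12.7%) of the 63 P450 members that could be matched; copies like the Cyp2c65 and Cyp2c66 windows are counted singly there. The letters TATAAA start 29 bases before the start of Cyp2c55, 162 before Cyp2c65 and 150 before Cyp2c66, and TATAAA occurs in 9.96% of all windows and 31.0% of the members' windows. In the Cyp2b10 window GCGTG starts 101 and 9 bases before the start, and it occurs in 24.7% of all windows and 18.3% of the members'. The nuclear receptor letters AGGTCA were found in none of the 4 printed windows, in 11.4% of all windows and in 21.1% of the members'. A match is a run of letters only, and binding was not measured here.

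Cyp2b10, the enzyme best known as a target of the xenobiotic receptor CAR, showed the largest fitted fall of the family in both tumour groups. Its 4 NGE arrays read 10.99, 10.91, 10.07 and 11.30, the pChePS_GC arrays 7.91, 7.33, 7.37 and 7.11, and the pCP_GC arrays 7.40, 7.98 and 8.88. Every tumour array lay below every NGE array, with pCP_GC replicate 3 the highest of them. The fall was -3.39 for pChePS_GC (SE 0.33, adjusted p = 3.05e-05), and that for pCP_GC was -2.73 (SE 0.36, adjusted p = 0.000238).

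Cyp2s1, a P450 of epithelial linings that lies beside Cyp2b10, read 13.57, 13.45, 13.36 and 13.54 in NGE. The pChePS_GC arrays read 12.57, 11.98, 12.15 and 10.33 and the pCP_GC arrays 11.30, 11.20 and 10.08. The NGE arrays lay close together and above all tumour arrays, which were spread more widely, with pChePS_GC replicate 4 and pCP_GC replicate 3 lowest. It fell by 1.72 in pChePS_GC (SE 0.42, adjusted p = 0.00913) and by 2.62 in pCP_GC (SE 0.46, adjusted p = 0.00123). Cyp2b9, from the same row of genes, was dim in all groups; it fell by 0.49 (adjusted p = 0.0204) and by 0.64 (adjusted p = 0.00639), and its first call was lost without NGE replicate 4 (adjusted p = 0.0614) or pChePS_GC replicate 2 (adjusted p = 0.0542), and after quantile normalization (adjusted p = 0.125).

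The Cyp2c subfamily includes epoxygenases of arachidonic acid, and Cyp2c55, Cyp2c65 and Cyp2c66 are its members known from the gut. Cyp2c65 read 12.85, 13.06, 12.75 and 13.02 in the NGE arrays, 11.55, 11.002, 10.81 and 10.29 in the pChePS_GC arrays, and 11.97, 10.80 and 10.49 in pCP_GC. Its tumour arrays all lay below NGE, and it fell by 2.01 in pChePS_GC (SE 0.32, adjusted p = 0.000709) and by 1.84 in pCP_GC (SE 0.34, adjusted p = 0.00168). Cyp2c66 read 9.42, 9.43, 8.44 and 9.58 in the NGE arrays, 7.40, 7.61, 6.85 and 7.16 in the pChePS_GC arrays, and 8.51, 7.78 and 8.69 in pCP_GC. Here NGE replicate 3 overlapped the pCP_GC arrays but not the pChePS_GC arrays. Cyp2c66 fell by 1.96 in pChePS_GC (SE 0.28, adjusted p = 0.000366) and by 0.89 in pCP_GC (SE 0.30, adjusted p = 0.0291). The pCP_GC call was lost without NGE replicates 1, 2 or 4 or pCP_GC replicate 2 (adjusted p from 0.0661 to 0.127).

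Cyp2c55 read 7.32, 8.03, 6.52 and 7.17 in the NGE arrays, 5.28, 5.48, 5.58 and 5.45 in the pChePS_GC arrays, and 5.77, 6.16 and 7.07 in pCP_GC. The pChePS_GC arrays lay below the level of the receptor genes and below all others, and the pCP_GC arrays overlapped NGE. The pCP_GC mean of 6.33 was also below that level (6.86), and the NGE mean of 7.26 was barely above it (7.24). Cyp2c55 fell by 1.81 in pChePS_GC (SE 0.32, adjusted p = 0.00135), a size that the dim tumour signal can understate. Its fall of 0.93 in pCP_GC (SE 0.34, adjusted p = 0.0412) was lost without NGE replicates 1, 2 or 4, pCP_GC replicates 1 or 2, or pChePS_GC replicate 2 (adjusted p from 0.0526 to 0.166), with only the compared groups (adjusted p = 0.0656) and after quantile normalization (adjusted p = 0.128). Over the 13 Cyp2c members, 8 fell in pChePS_GC, 3 of them by 2-fold or more, and 7 fell in pCP_GC, 1 of them by 2-fold or more. Of all genes, 23.4% and 31.8% fell, and 3.34% and 2.83% fell by 2-fold or more. Only 5 of the 13 members exceeded the receptor level in any group. Cyp2c genes are close copies, so signal of one can reach the probes of another, and the calls of single members are uncertain to that extent.

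Cyp2j6 and Cyp2u1, both hydroxylases or epoxygenases of long-chain fatty acids, fell by more than 2-fold in both tumour groups. Cyp2j6 read 11.81, 11.68, 11.79 and 11.74 in the NGE arrays, 10.38, 10.54, 10.02 and 9.99 in the pChePS_GC arrays, and 10.87, 10.42 and 10.53 in pCP_GC. It fell by 1.52 (SE 0.14, adjusted p = 2.03e-05) and by 1.15 (SE 0.15, adjusted p = 0.000245), with all tumour arrays below NGE. Cyp2u1 read 9.07, 9.41, 9.13 and 8.95 in the NGE arrays, 7.34, 7.59, 8.001 and 8.04 in the pChePS_GC arrays, and 7.27, 8.04 and 7.50 in pCP_GC. It fell by 1.40 (SE 0.20, adjusted p = 0.000357) and by 1.54 (SE 0.21, adjusted p = 0.000348), again with no overlap.

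The Cyp2d subfamily, whose human relative handles many drugs, had 9 members, of which 4 fell in each tumour group and 0 rose, beside falls of 23.4% and 31.8% of all genes. Cyp2d10 fell by 0.88 in pChePS_GC and 0.81 in pCP_GC, and Cyp2d40 fell by 0.51 and 0.62, all with adjusted p at or below 0.00283. Cyp2d22 stood apart from these, and it was picked out after its values were seen: it read 8.59 to 8.93 in the NGE arrays, 9.08 to 10.83 in pChePS_GC and 9.01 to 10.36 in pCP_GC, so every tumour array was above every NGE array. Its differences of 1.00 (adjusted p = 0.0505) and 0.76 (adjusted p = 0.131) did not pass. The former passed without pCP_GC replicate 2 (adjusted p = 0.0262) or pChePS_GC replicate 4 (adjusted p = 0.0273), and the latter without pChePS_GC replicate 3 (adjusted p = 0.0453).

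Within family 2, a single array could also stand far from the others of its group. Cyp2w1, a P450 known from embryonic gut and colon tumours and also picked out after its values were seen, read 7.76 to 7.95 in the NGE arrays, 7.51 to 7.81 in pCP_GC and 7.69 to 7.74 in 3 pChePS_GC arrays. The remaining array, pChePS_GC replicate 1, read 10.07. The difference between pChePS_GC and NGE was 0.44 (adjusted p = 0.435), and -0.15 without that replicate.

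**Figure D2:**
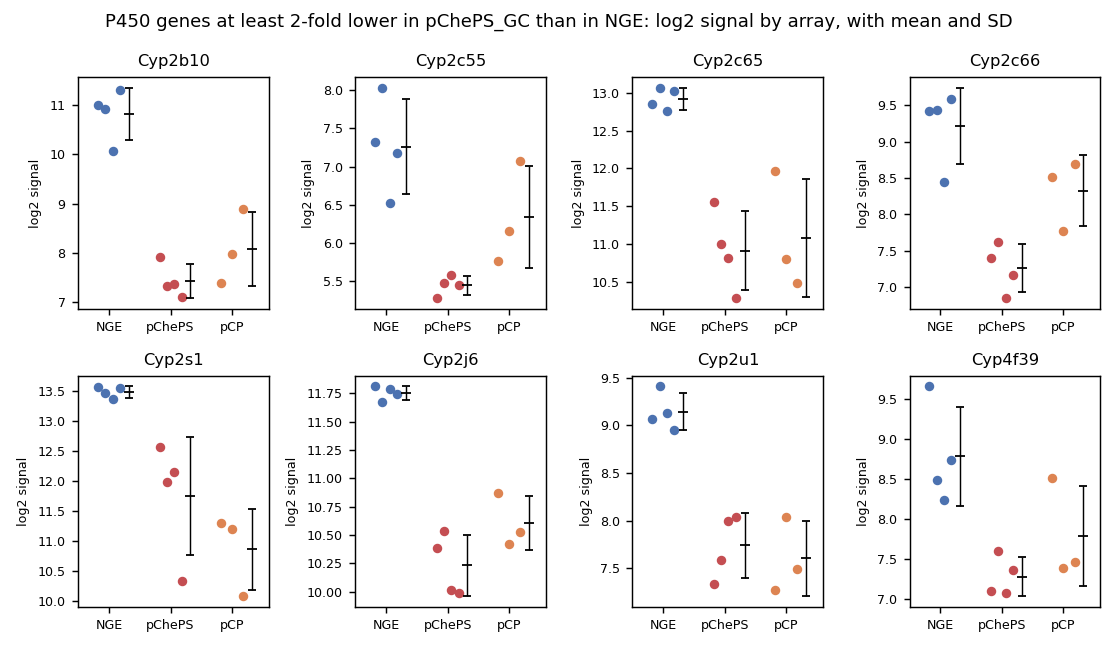
Log2 signal of the 8 P450 genes that were at least 2-fold lower in pChePS_GC than in NGE (vertical axes, each with its own range) in each array of NGE (4), pChePS_GC (4) and pCP_GC (3); points are arrays and the bar beside them is the mean with 1 SD. All pChePS_GC arrays lie below all NGE arrays, and the pCP_GC arrays overlap NGE for Cyp2c55, Cyp2c66 and Cyp4f39.

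Family 3, which clears many drugs in liver and intestine, had 6 members, and by limma 0 rose and 0 fell in either tumour group (0 at an unadjusted p under 0.05 in either direction as well). Of all genes, 23.4% fell and 18.7% rose in pChePS_GC, and 31.8% fell and 20.0% rose in pCP_GC. Only 2 of the 6 members exceeded the receptor level in any group, so these counts are not read as a lack of change in the family. Cyp3a13 read 11.09, 11.15, 11.49 and 11.45 in the NGE arrays, 11.10, 11.40, 10.11 and 10.47 in the pChePS_GC arrays, and 10.74, 10.50 and 10.90 in pCP_GC. The pCP_GC arrays lay below NGE and the pChePS_GC arrays overlapped it. Its differences were -0.52 in pChePS_GC (adjusted p = 0.105) and -0.58 in pCP_GC (adjusted p = 0.0896). The first passed without pChePS_GC replicate 2 (adjusted p = 0.0272), and the second without pChePS_GC replicate 2 (adjusted p = 0.0464) or replicate 3 (adjusted p = 0.0384).

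Cyp3a11, the main Cyp3a enzyme of mouse liver and small intestine, was picked out after its values were seen because it varied within groups. It read 5.14, 5.02, 5.95 and 7.75 in the NGE arrays, 4.86, 4.93, 4.60 and 4.88 in the pChePS_GC arrays, and 5.78, 6.83 and 8.17 in pCP_GC. The highest array of NGE was replicate 4 and that of pCP_GC was replicate 3, while all pChePS_GC arrays were low. Sis, the sucrase of the enterocyte brush border, read 5.37, 5.19, 6.50 and 8.81 in the NGE arrays, 5.05, 4.86, 4.96 and 5.08 in the pChePS_GC arrays, and 5.47, 5.37 and 9.73 in pCP_GC, so its highest arrays were the same ones. Of the whole list of 10 enterocyte markers, 2 rose and 4 fell in pChePS_GC and 0 rose and 4 fell in pCP_GC, to be read beside the shares of all genes above. The summed level of that list ran from 13.22 to 14.08 in the NGE arrays, 12.17 to 13.89 in pChePS_GC and 12.61 to 13.90 in pCP_GC, with 9, 7 and 9 of the 10 above the level of the receptor genes. It was highest in NGE replicate 4 (14.08) and pCP_GC replicate 3 (13.90). However, it was nearly as high in pChePS_GC replicate 2 (13.89), where Cyp3a11 read 4.93 and Sis 4.86. In pCP_GC replicate 2, where Cyp3a11 read 6.83, the sum was the lowest of that group (12.61) and Sis read 5.37. The part of intestinal cells in the Cyp3a11 values was not tested. The differences of Cyp3a11 were -1.15 in pChePS_GC (adjusted p = 0.14) and 0.96 in pCP_GC (adjusted p = 0.232), and the latter passed without NGE replicate 4 (adjusted p = 0.0284).

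Family 1 is the family induced through the aryl hydrocarbon receptor, the sensor of dioxins and of plant and smoke compounds. Cyp1a1, its classical target, read 6.84, 6.78, 7.77 and 7.24 in the NGE arrays, 6.19, 6.27, 6.47 and 6.61 in the pChePS_GC arrays, and 6.37, 6.11 and 6.61 in pCP_GC. Every tumour array was below every NGE array, and the mean of each group was at or below the level of the receptor genes. Cyp1a1 fell by 0.78 in pChePS_GC (SE 0.21, adjusted p = 0.0141) and by 0.80 in pCP_GC (SE 0.23, adjusted p = 0.0133), the latter lost without pCP_GC replicate 2 (adjusted p = 0.0571). Cyp1a2, its neighbour on the chromosome and mainly a liver enzyme, read 6.35 to 6.64 in the NGE arrays, 5.79 to 6.17 in pChePS_GC and 5.56 to 6.06 in pCP_GC, below the receptor level throughout. It fell by 0.38 (adjusted p = 0.0424) and by 0.58 (adjusted p = 0.00697). The former was lost without NGE replicates 1, 3 or 4, pCP_GC replicate 1 or pChePS_GC replicates 1, 2 or 3 (adjusted p from 0.0506 to 0.115), and both were lost after quantile normalization (adjusted p = 0.389 and 0.0867).

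Cyp1b1, the family's enzyme outside the liver, which also hydroxylates oestradiol, ran the other way without passing. It read 8.51, 8.68, 8.71 and 8.35 in the NGE arrays, 9.17, 9.81, 11.21 and 9.93 in the pChePS_GC arrays, and 8.08, 11.37 and 9.07 in pCP_GC. All pChePS_GC arrays were above NGE, whereas the pCP_GC arrays ran from below NGE to the highest value of all. The differences were 1.47 in pChePS_GC (SE 0.61, adjusted p = 0.0731) and 0.95 in pCP_GC (SE 0.66, adjusted p = 0.246). The first passed without pCP_GC replicate 1 (adjusted p = 0.0428) or replicate 2 (adjusted p = 0.0125), which enter through the shared estimate of spread, and when only the compared groups were fitted (adjusted p = 0.0138). Fibroblast markers were highest in the arrays with the highest Cyp1b1: their summed level was 15.10 in pChePS_GC replicate 3 and 15.15 in pCP_GC replicate 2, against 13.96 to 14.63 in the other tumour arrays and 11.82 to 12.28 in NGE, with 8 of 8 markers above the receptor level in the tumours and 7 of 8 in NGE. Their part in the Cyp1b1 values was not tested.

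Family 4 hydroxylates the far end of fatty acids, leukotrienes and related lipids. Of its 13 members 6 fell and 1 rose in pChePS_GC, and 5 fell and 0 rose in pCP_GC; of all genes 23.4% and 31.8% fell. Cyp4f39, whose human counterpart makes skin barrier lipids, read 9.67, 8.49, 8.24 and 8.74 in the NGE arrays, 7.10, 7.60, 7.07 and 7.36 in the pChePS_GC arrays, and 8.51, 7.39 and 7.47 in pCP_GC. The pChePS_GC arrays lay below NGE and pCP_GC replicate 1 lay within it. Cyp4f39 fell by 1.503 in pChePS_GC (SE 0.32, adjusted p = 0.00422) and by 1.00 in pCP_GC (SE 0.34, adjusted p = 0.032). The pCP_GC call was lost without NGE replicates 1 or 4 or pCP_GC replicates 2 or 3 (adjusted p from 0.0579 to 0.12) and with array weights (adjusted p = 0.0541).

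The smaller falls of family 4 concerned Cyp4f13, Cyp4f15 and Cyp4a31. Cyp4f13 read 10.42 to 10.52 in the NGE arrays, 9.28 to 10.24 in pChePS_GC and 9.27 to 9.76 in pCP_GC with no overlap, and it fell by 0.59 (adjusted p = 0.0258) and by 0.94 (adjusted p = 0.00327). The first of these calls was lost without NGE replicates 1, 3 or 4 (adjusted p = 0.0506, 0.0619 and 0.0557), and its size dropped to -0.39 without pChePS_GC replicate 4 (adjusted p = 0.0288). Cyp4f15 fell by 0.61 (adjusted p = 0.00694) and by 0.63 (adjusted p = 0.00663). Cyp4a31, which read below the receptor level in all groups and has close copies, fell by 0.88 (adjusted p = 0.000588) and by 0.78 (adjusted p = 0.00165).

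Cyp4f18, the mouse enzyme that inactivates leukotriene B in white blood cells, was the member of family 4 that rose. It read 7.13, 7.90, 7.92 and 7.17 in the NGE arrays, 8.41, 9.71, 8.82 and 9.60 in the pChePS_GC arrays, and 7.95, 8.58 and 8.28 in pCP_GC. Every tumour array was above every NGE array, pCP_GC replicate 1 by the least. It rose by 1.60 in pChePS_GC (SE 0.31, adjusted p = 0.00237), and its difference in pCP_GC was 0.74 (SE 0.33, adjusted p = 0.0834), which passed without pChePS_GC replicate 1 (adjusted p = 0.0469). The macrophage markers, of which 9 of 9 were above the receptor level in the tumours and 6 of 9 in NGE, had summed levels of 10.59 to 10.85 in the NGE arrays, 13.76 to 14.47 in pChePS_GC and 13.57 to 14.69 in pCP_GC. The part of white blood cells in this rise was not tested.

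The sterol and bile acid enzymes did not move as one. Cyp7b1, the hydroxylase of oxysterols in the alternative bile acid pathway, read 6.56, 6.16, 6.45 and 6.19 in the NGE arrays, 7.19, 8.08, 8.24 and 6.83 in the pChePS_GC arrays, and 7.25, 8.33 and 7.69 in pCP_GC. All tumour arrays were above NGE, whose arrays stood below the receptor level, so the rise can be larger than measured. It rose by 1.25 in pChePS_GC (SE 0.32, adjusted p = 0.0106) and by 1.42 in pCP_GC (SE 0.34, adjusted p = 0.00603). In mouse liver this gene is higher in males. Of the 5 P450 genes of that male-biased kind on the arrays, 1 rose (Cyp7b1) and 1 fell (Cyp2u1) in each tumour group, and the other 3 (Cyp2d9, Cyp4a12a and Cyp4a12b) did not pass. Of 5 female-biased ones, all below the receptor level, 0 rose and 2 fell in pChePS_GC and 3 fell in pCP_GC. Both counts are to be read beside all genes, of which 18.7% rose and 23.4% fell in pChePS_GC and 20.0% rose and 31.8% fell in pCP_GC.

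Cyp27a1, the mitochondrial sterol hydroxylase of bile acid synthesis, which macrophages also use, read 7.72, 7.82, 7.83 and 7.95 in the NGE arrays, 8.19, 10.12, 8.64 and 9.31 in the pChePS_GC arrays, and 9.29, 8.54 and 8.36 in pCP_GC. No tumour array overlapped NGE. It rose by 1.23 in pChePS_GC (SE 0.35, adjusted p = 0.0186), and its difference in pCP_GC was 0.90 (SE 0.38, adjusted p = 0.0688). The latter passed without pChePS_GC replicate 1 (adjusted p = 0.0342) or replicate 2 (adjusted p = 0.0194). Its highest array, pChePS_GC replicate 2, had a summed macrophage level of 14.36, where the 3 other arrays of that group had 13.76, 13.98 and 14.47. The part of macrophages in this rise was not tested.

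The classical bile acid enzymes of the liver were near or below the receptor level. Cyp7a1, the rate-limiting enzyme of that pathway, read 4.77 to 5.45 over all arrays. It differed by -0.19 in pChePS_GC (adjusted p = 0.137) and fell by 0.38 in pCP_GC (adjusted p = 0.0112), a call lost after quantile normalization (adjusted p = 0.137). Cyp8b1, which directs synthesis to cholic acid, differed by -0.18 (adjusted p = 0.154) and fell by 0.44 in pCP_GC (adjusted p = 0.00559, and 0.0711 after quantile normalization). Cyp39a1, a hydroxylase of an oxysterol, read 9.50 to 9.79 in the NGE arrays, 9.46 to 9.72 in pCP_GC and 10.11, 9.39, 8.83 and 7.99 in pChePS_GC, where it was spread over 2 log2 units. Its differences were -0.54 (adjusted p = 0.216) and -0.07 (adjusted p = 0.887), and the first passed without pChePS_GC replicate 1 (adjusted p = 0.0244). Cyp46a1, the cholesterol hydroxylase of neurons, fell by 0.31 (adjusted p = 0.0182) and by 0.36 (adjusted p = 0.00879), the first lost without NGE replicate 3 (adjusted p = 0.0506).

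Vitamin D is activated by a first hydroxylation, for which Cyp2r1 is the main enzyme, and a second one by Cyp27b1. Cyp2r1 read 7.66, 7.38, 7.18 and 7.26 in the NGE arrays, 6.08, 6.84, 6.08 and 7.17 in the pChePS_GC arrays, and 8.41, 7.95 and 7.26 in pCP_GC. The pChePS_GC arrays lay below NGE and below pCP_GC, and replicate 4 did so by the least. Cyp2r1 fell by 0.83 in pChePS_GC (SE 0.29, adjusted p = 0.0402), a call lost without any 1 of the 4 NGE arrays or pChePS_GC replicates 1 or 3 (adjusted p from 0.0626 to 0.103) and after quantile normalization (adjusted p = 0.089). Its difference in pCP_GC was 0.50 (SE 0.31, adjusted p = 0.196). Cyp27b1 read 7.28 to 7.51 in the NGE arrays, 6.65 to 7.26 in pChePS_GC and 7.12 to 7.18 in pCP_GC. It fell by 0.39 in pChePS_GC (adjusted p = 0.0283, lost without NGE replicates 1 or 3 or pChePS_GC replicates 1 or 2, with adjusted p from 0.0547 to 0.0778, and after quantile normalization at 0.0908), and differed by -0.24 in pCP_GC (adjusted p = 0.148). Of 6 other vitamin D genes 1 rose and 2 fell in each tumour group, where 18.7% and 20.0% of all genes rose and 23.4% and 31.8% fell. The riser was Vdr, the vitamin D receptor, at 7.42 to 8.89 in the NGE arrays, 9.19 to 10.13 in pChePS_GC and 9.28 to 9.84 in pCP_GC; it rose by 1.497 (adjusted p = 0.00409) and by 1.54 (adjusted p = 0.00399).

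Family 26 breaks down retinoic acid, the signal made from vitamin A, and its genes are usual targets of that signal. Cyp26a1 read 6.73, 6.43, 6.67 and 6.68 in the NGE arrays, 6.95, 6.70, 6.80 and 7.001 in the pChePS_GC arrays, and 6.21, 7.78 and 6.20 in pCP_GC. Its differences were 0.23 (adjusted p = 0.53) and 0.10 (adjusted p = 0.804). Without pCP_GC replicate 2, the high array, the pCP_GC difference was -0.42 and passed (adjusted p = 0.0189). The means of Cyp26a1 (6.63 in NGE, 6.86 in pChePS_GC and 6.73 in pCP_GC) were below the receptor level in every group. A difference of that size is therefore not read as loss of a transcript. Cyp26b1 read 7.99 to 8.25 in the NGE arrays, 8.16 to 9.16 in pChePS_GC and 7.61 to 8.24 in pCP_GC, with differences of 0.35 (adjusted p = 0.198) and -0.26 (adjusted p = 0.356). Cyp26c1 fell by 0.57 in pCP_GC (adjusted p = 0.00451), and its difference of -0.32 in pChePS_GC (adjusted p = 0.0534) passed without NGE replicate 2 (adjusted p = 0.0324), pCP_GC replicate 2 (adjusted p = 0.0397) or pCP_GC replicate 3 (adjusted p = 0.0272).

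Genes that take up vitamin A, make retinoic acid from it or sense it were read beside these enzymes. Of 16 such genes 8 rose and 4 fell in pChePS_GC, and 5 rose and 6 fell in pCP_GC. Of all genes, 18.7% rose and 23.4% fell in pChePS_GC, and 20.0% rose and 31.8% fell in pCP_GC, so the falls were near those shares. Stra6, the membrane receptor that takes up vitamin A, read 8.24 to 8.50 in the NGE arrays, 9.49 to 12.12 in pChePS_GC and 10.73 to 12.11 in pCP_GC; it rose by 2.67 (adjusted p = 0.00261) and by 3.21 (adjusted p = 0.00125). The retinal dehydrogenases parted: Aldh1a3 rose by 3.05 (adjusted p = 0.000615) and by 2.26 (adjusted p = 0.00433), while Aldh1a1 fell by 1.18 (adjusted p = 0.00575) and by 2.22 (adjusted p = 0.000215). Aldh1a2 rose by 2.35 in pChePS_GC (adjusted p = 0.00339) and differed by 1.25 in pCP_GC (adjusted p = 0.0636), which passed without pCP_GC replicate 1 (adjusted p = 0.0444) or pChePS_GC replicates 2 or 4 (adjusted p = 0.0355 and 0.0284). Dhrs9, a retinol dehydrogenase of epithelia, fell by 2.98 (adjusted p = 9.23e-05) and fell by 2.55 in pCP_GC (adjusted p = 0.000442).

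Of the 5 P450 genes of steroid hormone synthesis measured, Cyp11b2 was above the receptor level in each group, Cyp21a1 in pCP_GC alone, and Cyp11a1, Cyp11b1 and Cyp17a1 in none. Cyp21a1, the hydroxylase that adrenal glands need for cortisol and aldosterone, read 6.95, 6.66, 6.97 and 6.89 in NGE and 6.76, 6.62, 6.64 and 6.58 in pChePS_GC, but 9.23, 8.18 and 8.996 in pCP_GC. All 3 pCP_GC arrays were above the other 8. It rose by 1.93 in pCP_GC (SE 0.20, adjusted p = 5.75e-05), and its difference in pChePS_GC was -0.22 (adjusted p = 0.356). NGE and pChePS_GC were at background level, so the rise can be larger than measured. Cyp21a1 has a pseudogene copy and lies next to C4b, a complement gene. C4b read 7.05 to 8.06 in the NGE arrays, 10.04 to 11.14 in pChePS_GC and 11.01 to 11.58 in pCP_GC, and it rose by 3.12 (adjusted p = 1.48e-05) and by 3.58 (adjusted p = 1.3e-05), so unlike Cyp21a1 it was high in both tumour groups. Stk19, the next gene on the other side, read 8.89 to 9.42 over all arrays.

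In adrenal cells Cyp21a1 works beside other P450 enzymes of steroid synthesis, and of Cyp11a1, Cyp11b1, Cyp11b2 and Cyp17a1 0 rose in pCP_GC (by limma, and 0 were higher at an unadjusted p under 0.05). Cyp11a1, which starts steroid synthesis, read 6.62 to 6.84 in the NGE arrays, 6.44 to 6.83 in pChePS_GC and 6.22 to 6.79 in pCP_GC, with differences of -0.01 (adjusted p = 0.974) and -0.22 (adjusted p = 0.22, and 0.0381 without pCP_GC replicate 2). Cyp17a1, the enzyme towards sex steroids, fell by 0.37 (adjusted p = 0.0125, and 0.236 after quantile normalization) and by 0.55 (adjusted p = 0.00199), below the receptor level in every group. Cyp11b1 and Cyp11b2, which finish corticosterone and aldosterone, differed by -0.13 (adjusted p = 0.348) and -0.22 (adjusted p = 0.153) in pChePS_GC and fell by 0.38 (adjusted p = 0.0229) and 0.51 (adjusted p = 0.0082) in pCP_GC; the Cyp11b1 call was lost without NGE replicates 1 or 3 or pCP_GC replicates 1 or 2 (adjusted p from 0.0604 to 0.0731) and after quantile normalization (adjusted p = 0.28). Star, which carries cholesterol into steroid-making mitochondria, read 6.94 to 7.11 in the NGE arrays, 7.17, 7.72, 7.92 and 9.34 in the pChePS_GC arrays, and 6.57, 7.46 and 6.58 in pCP_GC. Its differences were 1.01 (adjusted p = 0.0543) and -0.15 (adjusted p = 0.772), and the first passed without pCP_GC replicate 2 (adjusted p = 0.0477) or pChePS_GC replicate 1 (adjusted p = 0.018). Cyp20a1, an enzyme without a settled substrate, read 10.23 to 10.47 in the NGE arrays, 10.05 to 10.91 in pChePS_GC and 10.51 to 10.74 in pCP_GC, with differences of 0.11 (adjusted p = 0.603) and 0.33 (adjusted p = 0.131); the latter passed without pChePS_GC replicate 2 (adjusted p = 0.0486).

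**Figure D3:**
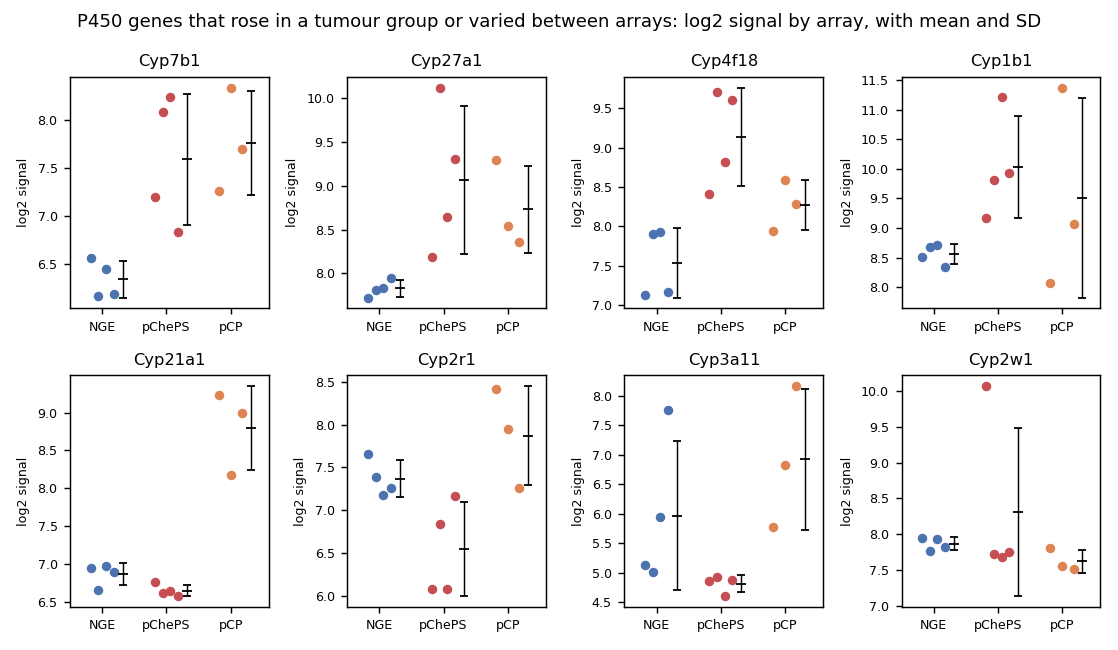
Log2 signal by array (vertical axes, each with its own range) of the P450 genes that rose in a tumour group (Cyp7b1, Cyp27a1, Cyp4f18, Cyp21a1) and of 4 that varied between or within groups (Cyp1b1, Cyp2r1, Cyp3a11, Cyp2w1); points are arrays of NGE (4), pChePS_GC (4) and pCP_GC (3), and the bar beside them is the mean with 1 SD. The pCP_GC arrays of Cyp21a1 lie between 8.18 and 9.23 with all other arrays at or below 6.97, while Cyp2w1 is high in 1 pChePS_GC array.

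The comparison of the 2 tumour groups asks whether the models, which differ in the floxed Smad4 alleles and in the number of floxed Cdh1 alleles, differ in their P450 genes. By limma, 0 members were higher in pChePS_GC than in pCP_GC and 1 was lower (1.22%), where 0.115% of all genes were higher and 0.251% lower. At an unadjusted p under 0.05, 6 members were higher and 7 lower. No share of all genes was taken at that cut, so these counts are not read as differences between the models. The call was Cyp21a1, lower in pChePS_GC at -2.15 (95% interval -2.60 to -1.70, adjusted p = 0.00484). It was lost when only these 2 groups were fitted (adjusted p = 0.126), and the range over all alternatives was 3.09e-05 to 0.126. The next differences did not pass. Cyp2r1 was at -1.33 (adjusted p = 0.105), Cyp3a11 at -2.11 (adjusted p = 0.175), Cyp2c66 at -1.07 (adjusted p = 0.155) and Cyp2c55 at -0.89 (adjusted p = 0.243), each with all pChePS_GC arrays below all pCP_GC arrays; such non-overlap was found in 6 members and in 4.40% of all genes. The reverse, all pChePS_GC arrays above all pCP_GC arrays, was found in 9 members and in 9.50% of all genes. Cyp2b10 (-0.66, adjusted p = 0.372) and Cyp2s1 (0.89, adjusted p = 0.35) overlapped between the tumour groups, and their intervals of -1.44 to 0.13 and -0.12 to 1.91 each reach past a 2-fold difference on 1 side.

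P450 enzymes depend on partners that hand them electrons and haem. Of 7 electron carriers and membrane partners measured, 3 fell in pChePS_GC and 2 in pCP_GC, and 0 rose. Of all genes, 23.4% fell and 18.7% rose in pChePS_GC, and 31.8% fell and 20.0% rose in pCP_GC. The counts of every gene list here are to be read beside those shares. Pgrmc1, a haem-binding partner of P450 enzymes, read 11.79 to 11.93 in the NGE arrays, 11.17 to 11.34 in pChePS_GC and 11.15 to 11.46 in pCP_GC; it fell by 0.62 (adjusted p = 0.000347) and by 0.53 (adjusted p = 0.00128). Fdx1, the mitochondrial ferredoxin, fell by 0.49 (adjusted p = 0.00695) and by 0.73 (adjusted p = 0.00101). Cyb5a, cytochrome b5, fell by 0.68 in pChePS_GC (adjusted p = 0.0188) and differed by -0.47 in pCP_GC (adjusted p = 0.0843, and 0.0191 without pChePS_GC replicate 4). The reductase gene Por was not analysed here.

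Among 12 genes of haem synthesis and breakdown, 2 rose and 2 fell in pChePS_GC and 1 rose and 3 fell in pCP_GC. Cpox, an oxidase late in haem synthesis, read 10.30 to 10.65 in the NGE arrays, 8.67 to 9.44 in pChePS_GC and 9.40 to 9.53 in pCP_GC. It fell by 1.54 (adjusted p = 3.57e-05) and by 1.07 (adjusted p = 0.000652). Hmox1, the inducible enzyme that breaks haem down, read 8.19 to 8.96 in the NGE arrays, 9.78 to 10.72 in pChePS_GC and 9.24 to 9.53 in pCP_GC, and rose by 1.76 (adjusted p = 9.81e-05) and by 0.88 (adjusted p = 0.0074). Macrophages are known for high Hmox1, and their markers rose in the same arrays; their part was not tested.

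Of 20 measured transcription factors and partners known to set P450 levels, 3 rose and 8 fell in pChePS_GC, and 1 rose and 8 fell in pCP_GC. Nr0b2, which encodes SHP, a repressor of bile acid synthesis, read 9.63 to 10.01 in the NGE arrays, 6.82 to 6.98 in pChePS_GC and 6.83 to 7.28 in pCP_GC. It fell by 2.93 (SE 0.11, adjusted p = 5.05e-08) and, in pCP_GC, fell by 2.79 (SE 0.12, adjusted p = 1.83e-07), with a wide gap between NGE and the tumours. Nr1i2, the xenobiotic receptor PXR, which drives Cyp3a and Cyp2b genes, read 9.76, 10.88, 10.74 and 10.57 in the NGE arrays, 9.71, 9.04, 7.95 and 8.58 in the pChePS_GC arrays, and 9.35, 8.50 and 8.35 in pCP_GC, and fell by 1.66 (adjusted p = 0.00596) and by 1.75 (adjusted p = 0.00505). Ppara, the fatty acid receptor that drives Cyp4a genes, fell by 1.06 (adjusted p = 0.000372) and by 1.16 (adjusted p = 0.000367). Nr1i3, which encodes CAR, read 6.28 to 6.97 over all arrays, below the receptor level in each group. Hnf4a, a factor of gut and liver epithelium, read 11.57 to 12.13 in the NGE arrays, 11.17 to 11.93 in pChePS_GC and 11.28 to 11.93 in pCP_GC, with differences of -0.27 (adjusted p = 0.271) and -0.13 (adjusted p = 0.616). Ahr, the aryl hydrocarbon receptor, rose by 0.47 in pChePS_GC (adjusted p = 0.0373), which was lost without NGE replicates 2, 3 or 4 or pChePS_GC replicates 1, 2 or 3 (adjusted p from 0.0628 to 0.102) and under median centring (adjusted p = 0.142) or quantile normalization (adjusted p = 0.0952).

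Other enzymes take over P450 products. Ephx2, the soluble hydrolase that opens the epoxides made by Cyp2c and Cyp2j enzymes, read 11.42 to 11.64 in the NGE arrays, 8.40 to 10.13 in pChePS_GC and 8.76 to 9.55 in pCP_GC. It fell by 2.04 (adjusted p = 0.000621) and by 2.37 (adjusted p = 0.000403). In its list of 13 epoxide hydrolases and lipoxygenases, 2 rose and 5 fell in pChePS_GC and 3 rose and 4 fell in pCP_GC. Alox12, a lipoxygenase acting on the same arachidonic acid, rose by 1.85 in pCP_GC (adjusted p = 0.00533) and by 1.17 in pChePS_GC (adjusted p = 0.0383), the latter lost without any 1 of the 4 NGE arrays or pChePS_GC replicates 2, 3 or 4 (adjusted p from 0.0576 to 0.0962) and under median centring (adjusted p = 0.0513).

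Of 19 conjugating enzymes, 1 rose and 5 fell in pChePS_GC and 1 rose and 6 fell in pCP_GC. The falls were near the shares of all genes, 23.4% and 31.8%. Sult1b1, a sulfotransferase of the gut, fell by 3.13 (adjusted p = 0.00136) and by 2.16 (adjusted p = 0.0113), and Ugt8a, which makes galactosylceramide, rose by 1.32 (adjusted p = 1.07e-05) and by 1.99 (adjusted p = 2.03e-06). Of 5 flavin monooxygenases, which act on similar foreign compounds without a P450, 1 rose and 2 fell in pChePS_GC and 0 rose and 2 fell in pCP_GC. Fmo5 fell by 2.07 (adjusted p = 0.00175) and by 1.64 (adjusted p = 0.00699).

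Steroid and sterol genes that work beside the P450 enzymes were mixed. Of 13 steroid hormone genes, 2 rose and 3 fell in pChePS_GC and 2 rose and 6 fell in pCP_GC, beside falls of 23.4% and 31.8% of all genes. Hsd11b1, which regenerates active glucocorticoid and is a gene of fibroblasts as well as liver, read 6.44 to 6.64 in the NGE arrays, 8.39 to 10.75 in pChePS_GC and 8.10 to 10.84 in pCP_GC; it rose by 2.61 (adjusted p = 0.00651) and by 2.68 (adjusted p = 0.00609). Its highest arrays, pChePS_GC replicate 3 and pCP_GC replicate 2, were those with the highest summed fibroblast level, whose part was not tested. Hsd17b2, which inactivates oestradiol and testosterone, fell by 1.89 in pChePS_GC (adjusted p = 0.00864) and differed by -0.96 in pCP_GC (adjusted p = 0.126, and 0.0281 without pChePS_GC replicate 4).

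Of 18 cholesterol synthesis genes, 0 rose and 8 fell in pChePS_GC, and 1 rose and 3 fell in pCP_GC, beside falls of 23.4% and 31.8% of all genes. Hmgcs1, an early enzyme of the pathway, fell by 1.36 (adjusted p = 6.86e-05) and by 0.73 (adjusted p = 0.00431). Cyp51, the P450 of that pathway, which is not among the 82 members because its symbol has no subfamily letter, read 10.59 to 10.93 in the NGE arrays, 9.65 to 10.26 in pChePS_GC and 10.62 to 10.91 in pCP_GC. In pChePS_GC it fell by 0.85 (adjusted p = 0.00156), while the pCP_GC difference was -0.10 (adjusted p = 0.629). The 2 prostanoid synthases with a P450 fold but another name moved up. Tbxas1, the thromboxane synthase of platelets and macrophages, rose by 1.15 (adjusted p = 0.00198) and by 1.08 (adjusted p = 0.00341). Ptgis, the prostacyclin synthase of vessel walls, rose by 1.28 in pChePS_GC (adjusted p = 0.0183), and its difference in pCP_GC was 0.49 (adjusted p = 0.319), with replicate 2 at 9.70 beside 8.05 and 8.17 and a value of -0.0404 without it.

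**Figure D4:**
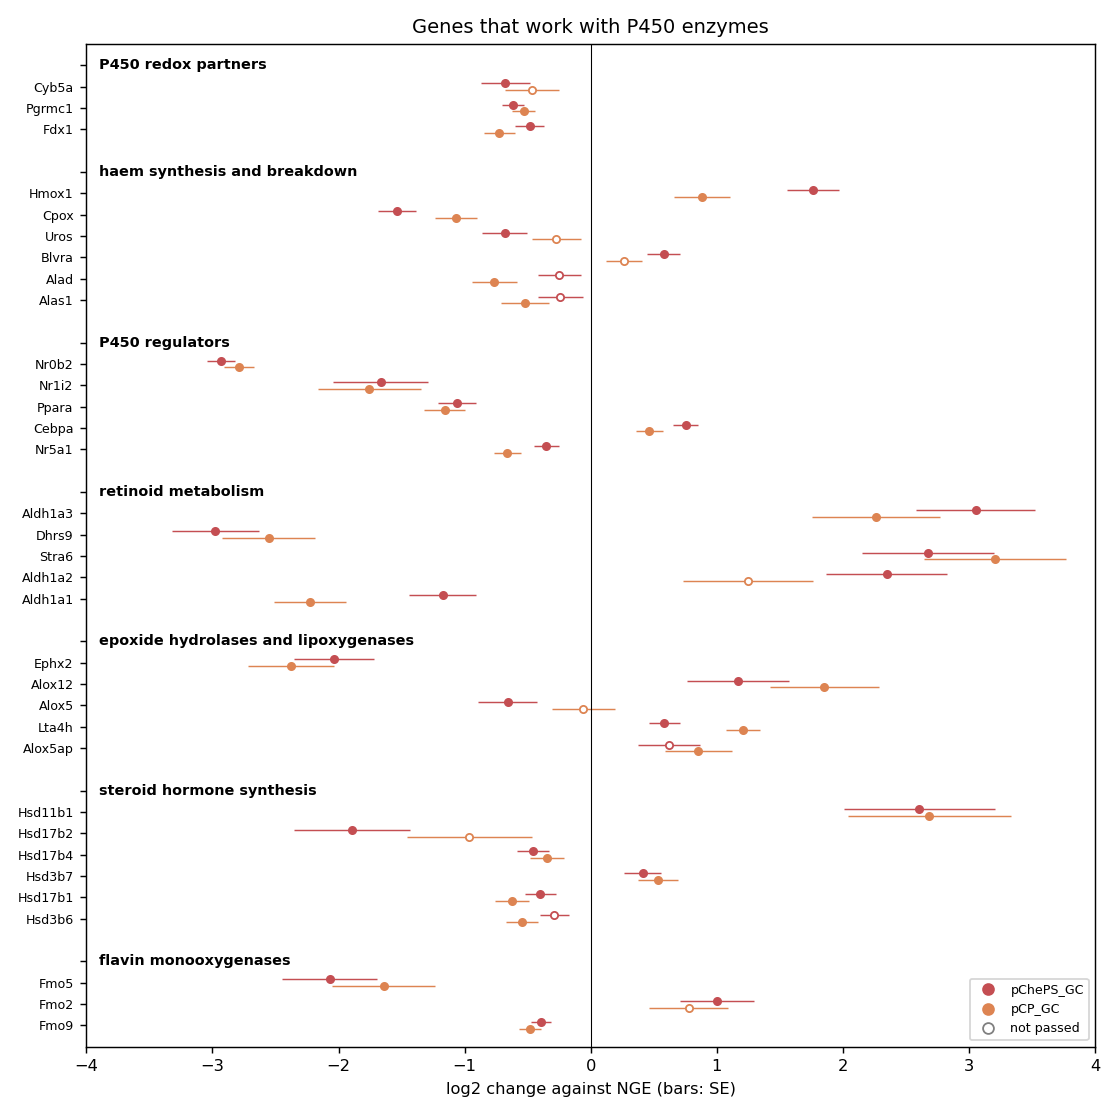
Log2 change against NGE (horizontal axis) of up to 4 genes per comparison that passed in each of 7 lists of P450 partners, regulators and neighbouring pathways, in pChePS_GC and pCP_GC; bars are standard errors, filled points passed at an adjusted p under 0.05 and open points did not. Nr0b2, Dhrs9 and Ephx2 lie at or below -2 in both tumour groups, and Stra6, Hsd11b1 and Aldh1a3 above 2.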

How the data were processed

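Each of the 11 mouse stomach samples was read on its own Affymetrix array, after AllPrep extraction and biotin labelling per the labels. The authors deposited normalized log2 signals, a value for every probe set in each sample; that the scale is log2 was inferred from the range (2.88 to 14.6). The submitters' processing notes name Affymetrix Expression Console. Its algorithm and the annotation build were not given in the sources used here, and dim probe sets depend most on them.

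Of 35556 probe sets, 21789 had 1 gene symbol, 1621 several and 12146 none. The brightest probe set over the 11 arrays stood for each of 19938 genes. Group means were estimated in a single limma fit of all arrays (lmFit, eBayes; limma 3.58.1, R 4.3.3), tested two-sided and adjusted by Benjamini-Hochberg over all genes. An adjusted p under 0.05 counted as passed. The fit was tested on simulated data. Promoter windows come from RefSeq (GRCm38.p6).

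The members and gene lists were chosen with earlier results of these data known. Named members are, per comparison, up to 12 per direction with the largest change among those that passed without overlap, any that passed between tumour groups, the brightest in NGE of each family, and all of families 1, 7, 8, 11, 17, 21, 26, 27, 39 and 46; up to 4 genes that passed are named per list. Trp53 was not analysed here. As alternatives, the prior, the fitted groups, scaling, dim-gene filter, probe set choice, array weights, replicate block and thresholds were varied one by one, and single arrays were left out.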

Additional observations from a re-analysis of the deposited data

Results flagged for a closer look

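In groups of 4 arrays, 8 of 78 tested groups had 1 array whose gap to the nearest other was large for the range. Chance gives such a gap in about 1 in 20 groups, but the count cannot be set against that rate. The genes were named partly from these values, and Cyp2d22, Cyp2w1 and Cyp3a11 were added after theirs were seen. Equal readings in pChePS_GC for Cyp1a2, Cyp11b1 and Cyp26c1 also make a gap look larger for its range. Cyp2w1 read 10.07 in pChePS_GC replicate 1 against 7.69 to 7.74 in the others of its group. Cyp2c66 read 8.44 in NGE replicate 3 against 9.42 to 9.58. Cyp2d10 read 6.73 in pChePS_GC replicate 2 against 7.12 to 7.17, and Cyp26b1 read 7.99 in NGE replicate 2 against 8.23 to 8.25. The other 4 were Cyp11a1 at 6.84 in NGE replicate 1 (others 6.62 to 6.66), Cyp11b1 at 6.56 in pChePS_GC replicate 4 (6.33 to 6.34), Cyp1a2 at 5.79 in pChePS_GC replicate 1 (6.15 to 6.17) and Cyp26c1 at 7.40 in pChePS_GC replicate 2 (7.56).

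Cyp21a1 differed between the tumour groups by -2.15, the single such member. The probe set shared by Cyp4v3 and Klkb1, outside the comparisons because it names 2 genes, had a mean of 8.29 in pCP_GC (8.16, 8.40 and 8.31), above the 7.96 to 8.09 of NGE; the pChePS_GC arrays read 8.38, 8.80, 8.37 and 7.91.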

How the results depend on the processing

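The count of members that fell in pChePS_GC (32) was 52 with arrays centred on their medians, 17 after quantile normalization (all genes: 45.6% and 18.1%, against 23.4% as reported), 16 at an adjusted p under 0.01, 8 at 2-fold or more, 16 without the dimmest 25% of genes and 6 without the dimmest 50%, which leave 37 and 15 members to test. In pCP_GC (40) it was 24 after quantile normalization (all genes: 23.3%, against 31.8% as reported), 24 at an adjusted p under 0.01, 5 at 2-fold or more, 17 without the dimmest 25% and 5 without the dimmest 50%. With centring, the median of all genes shifted by -0.17 in pChePS_GC and -0.21 in pCP_GC, and 22.8% and 21.7% of all calls were rises, where the fit reported has 44.5% and 38.6%. Members that rose in pChePS_GC (3) numbered 1 at an adjusted p under 0.01, 6 with array weights and 5 with only the compared groups; in pCP_GC (2) they numbered 6 with array weights, 5 with only the compared groups and 0 without the dimmest 50%. Leaving out 1 array at a time gave 25 to 34 falls and 3 to 5 rises in pChePS_GC (5 without pCP_GC replicate 2 or pChePS_GC replicate 4), 28 to 40 falls and 2 to 4 rises in pCP_GC (4 without pChePS_GC replicate 1 or 2), and 1 to 1 falls and 0 to 1 rises between tumour groups (1 without pCP_GC replicate 2). The fall between tumour groups (1) was 0 with only those groups, with the replicate block and without the dimmest 50%. Same-numbered samples of different groups correlated in their deviations at -0.15 to 0.16, so the numbers were not taken to pair them; with the replicate block 35 members fell and 3 rose in pChePS_GC, and 36 fell and 3 rose in pCP_GC. That block ended the calls of Cyp2c55 (adjusted p = 0.0819 by limma) and Cyp2c66 (0.0665) in pCP_GC, of Ahr (0.0563) and Alox12 (0.0668) in pChePS_GC, and of Cyp21a1 between tumour groups (0.0502). Values that turned sign had not passed in the fit reported. Against NGE in pChePS_GC, Cyp11a1 was at 0.0205 with array weights and 0.17 after quantile normalization, and at -0.054 to 0.075 without single arrays. Cyp11b1 was at 0.0521 after quantile normalization. Cyp20a1 was at -0.0678 when centred and at -0.0504 to 0.236 without single arrays, and Cyp2w1 at -0.15 to 0.647. Against NGE in pCP_GC, Cyp26a1 was at -0.27 with array weights, -0.11 when centred and -0.42 to 0.365 without single arrays, and Cyp3a11 at -0.23 with array weights. Among other genes, whose alternatives were added after the values were seen, Cyp51 was at 0.0038 with array weights, Star at 0.0321 after quantile normalization and 0.0494 with the replicate block, Hnf4a at -0.255 to 0.0707 and Ptgis at -0.0404 to 0.784 without single arrays, all in pCP_GC. For 85 results of named members, 1580 of 1700 alternative values kept direction and side of the threshold. Beyond the smaller number of members under the dim-gene filters, the cause was not tested.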

Other observations

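Probe sets that name several P450 genes gave values outside the comparisons. The one shared by Cyp4a32, Cyp4a31 and Cyp4a10 read 7.10, 7.60, 7.21 and 7.38 in the NGE arrays, 6.02, 5.90, 5.84 and 6.08 in the pChePS_GC arrays, and 5.74, 5.48 and 6.26 in pCP_GC, so that all tumour arrays lay below NGE. The one shared by Cyp3a59, Cyp3a57 and Cyp3a25 read 4.22 to 4.92 in the NGE arrays, 4.13 to 4.37 in pChePS_GC and 4.44, 4.32 and 5.84 in pCP_GC. The one shared by Cyp3a41b, Cyp3a44 and Cyp3a41a read 5.48, 5.18, 5.63 and 6.36 in the NGE arrays, 5.15 to 5.51 in pChePS_GC and 5.62, 5.59 and 6.44 in pCP_GC. For both, NGE replicate 4 and pCP_GC replicate 3 were the highest arrays of their groups, as they were for Cyp3a11.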
